A study of Mus musculus with 1528 samples.

Results

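The genes described here are 10 of the 55421 genes counted in single bone marrow–derived macrophages (BMDMs), chosen by name: 7 Toll-like receptor genes (*Tlr1*, *Tlr2*, *Tlr4*, *Tlr6*, *Tlr7*, *Tlr8* and *Tlr9*), the lipopolysaccharide co-receptor genes *Cd14* and *Ly96*, and the adaptor gene *Myd88*. BMDMs of 2 wild-type C57BL/6 mice (C57BL/6J in the study's methods for BMDM culture) were grown in M-CSF. They then received IL4 and IL13 for 24 h, either without or together with TNF (10 ng/ml of each cytokine), so that IL4 and IL13 were common to both groups, IL4+IL13 and IL4+IL13+TNF. Live single cells were sorted into 4 plates and sequenced with a Smart-seq2 protocol, which copies whole transcripts and carries no molecular identifiers. The comparison asks how TNF added to IL4+IL13 changed the mRNAs of the receptors with which macrophages sense microbes. Unstimulated cells and cells given a microbial ligand were not analysed here.

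Toll-like receptors bind parts of microbes. TLR1, TLR2, TLR4 and TLR6 act mainly at the cell surface, where TLR2 pairs with TLR1 or TLR6 to bind bacterial lipopeptides and TLR4 binds lipopolysaccharide with MD-2 (encoded by *Ly96*) after CD14 has handed it over. TLR7, TLR8 and TLR9 sense nucleic acids in endosomes, and all receptors named here can signal through MYD88 to NF-κB.

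Of 1524 wells with a known mouse and treatment, 1386 passed the quality filter. IL4+IL13 kept 357 wells in mouse 1 and 333 in mouse 2, and the TNF group kept 347 and 349. Each mouse and treatment gave between 162260282 and 179757666 fragments on genes, with a median of 447264 to 490310 per cell. All 8 macrophage markers examined were above 1 CPM (fragments of a gene per 1000000 fragments counted) in each mouse and treatment, and their summed level was 15058 and 16781 CPM with IL4+IL13 against 28334 and 27222 CPM with TNF. The summed markers of B cells, T cells, mast cells and their relatives, erythroid and stromal cells were at most 3.41 CPM each. Neutrophil markers summed to 1.03 and 2.28 CPM with IL4+IL13 and 1.82 and 5.48 CPM with TNF, and their part in the results was not tested. Of 7 dendritic cell markers *Bst2*, which was found in nearly every cell, made up 282 and 223 CPM of a sum of 291 and 235 CPM with IL4+IL13, and 357 and 349 CPM of 368 and 364 CPM with TNF. The others went different ways, with *Zbtb46* at 0.324 and 2.9998 CPM against 1.44 and 6.70 CPM and *Siglech* at 0.708 and 1.99 CPM against 0 and 0.0228 CPM, and their part was not tested either. Every plate held both treatments of 1 mouse in separate rows of wells, so treatment and position on the plate cannot be told apart. In levels summed over cells, fewer cells with a transcript and fewer copies per cell cannot be told apart either.

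The sequence bears first on how well *Tlr1* and *Tlr6* can be measured. Both genes lie on the minus strand of chromosome 5 with 18467 bases between them, and 15.3% of the 50-base stretches of the *Tlr1* transcript examined occur in other transcripts, as do 12.6% of those of *Tlr6*, against none for the other 8 genes. The longest run that both share has 229 bases, all coding, at chr5:64925537-64925765 in *Tlr1* and chr5:64953828-64954056 in *Tlr6* (mm10). It is shown because a fragment from inside it matches both genes, whereas only uniquely mapped fragments were counted. The *Tlr1* and *Tlr6* values are therefore uncertain by an amount not known.
Tlr1 and Tlr6, shared run: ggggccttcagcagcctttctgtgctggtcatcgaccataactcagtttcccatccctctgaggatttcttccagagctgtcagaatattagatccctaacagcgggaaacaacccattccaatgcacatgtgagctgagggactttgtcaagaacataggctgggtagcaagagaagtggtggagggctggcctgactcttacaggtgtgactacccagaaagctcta

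*Tlr7* and *Tlr8* are neighbours on the X chromosome, with 40599 bases between them and the same strand. *Myd88* (chr9:119335934-119341411) shares 290 exon bases with the neighbouring genes *Slc22a14* and *Acaa1a*. *Slc22a14* lies on the same strand as *Myd88* and *Acaa1a* on the opposite one, and strand was not used in counting. Fragments from the shared bases therefore cannot be ascribed to *Myd88* alone. No other gene of the group overlapped another gene.

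*Tlr2*, the gene with the largest difference below, lies on the minus strand at chr3:83836272-83841767. The 91 bases just outside it, at chr3:83841768-83841858, are shown because they hold a match to the κB consensus (the binding motif of NF-κB). It was the only one among the 8 RefSeq promoters, of 250 bases each, searched for 6 of the 10 genes. *Cd14*, *Tlr4*, *Tlr7* and *Ly96* were not searched, so whether they hold a match is not known. The match in *Tlr2* is in capitals, on the gene's strand.
Tlr2, upstream of the gene: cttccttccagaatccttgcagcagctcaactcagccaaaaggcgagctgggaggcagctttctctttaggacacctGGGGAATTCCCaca

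The capitals are 2 overlapping matches that together span 11 bases, and they begin 173 bases before the start that RefSeq gives (GRCm38.p6). The κB motif, searched on both strands, occurred in 3.90% of 32851 promoters of the same length. AP-1 (TGACTCA or TGAGTCA) matched in *Tlr9*, a PU.1 site (GAGGAAGT) in *Tlr1*, an interferon-stimulated response element (GAAA, any 2 bases, GAAA) in *Tlr6* and *Myd88*, and a STAT6 site (TTC and GAA with any 4 bases between) in *Tlr8*. Searched in the same way, these motifs occurred in 4.46%, 2.44%, 2.98% and 5.85% of all promoters. A match is a run of letters and not a measured site.

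Compared per transcript length, *Cd14* was the most abundant of the 10 mRNAs with IL4+IL13, at 189.6 RPKM (fragments per kilobase of exon, scaled like CPM) in mouse 1 and 146 RPKM in mouse 2. *Ly96* followed at 72.3 and 73.6 RPKM. *Tlr7* (29.8 and 34.4 RPKM), *Tlr4* (28.8 and 31.7 RPKM) and *Myd88* (25.5 and 23.1 RPKM) came next, and the ranges of *Tlr7* and *Tlr4* overlapped between mice. *Tlr1* (8.79 and 12.2 RPKM) and *Tlr8* (8.13 and 11.7 RPKM) overlapped as well, as did *Tlr2* (5.43 and 6.95 RPKM) and *Tlr6* (4.55 and 5.55 RPKM). *Tlr9* was lowest at 0.186 and 0.811 RPKM. For some genes the exon length exceeds that of the transcript examined above. It is 5556 against 4077 bases for *Tlr4*, 4082 against 3897 for *Tlr7* and 1021 against 666 for *Ly96*. The overlap of *Tlr7* and *Tlr4* therefore depends on the length used. BMDMs in IL4+IL13 thus carried mostly *Tlr4* and *Tlr7* among the 7 chosen Toll-like receptor mRNAs, together with more mRNA for the lipopolysaccharide co-receptors. *Tlr13*, which was not among the 7, lay below *Tlr4* and *Tlr7* in RPKM and above the others of the 7 in both mice.

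The makeup of the 7 receptors differed between the treatments. Shares given here leave out *Tlr13* and all other Toll-like receptor genes outside the 7, and they depend on the exon length used. *Tlr2* took 6.34% and 6.74% of the summed RPKM of the 7 receptors with IL4+IL13 and 25.9% and 28.5% with TNF. *Tlr7* went the other way, from 34.7% and 33.3% to 19.7% and 18.2%. *Tlr4* took 33.6% and 30.7% against 25.9% and 24.8%. The sum itself was 85.7 and 103 RPKM with IL4+IL13 and 101 and 98.3 RPKM with TNF, so the treatments overlapped in the total.

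**Figure D1:**
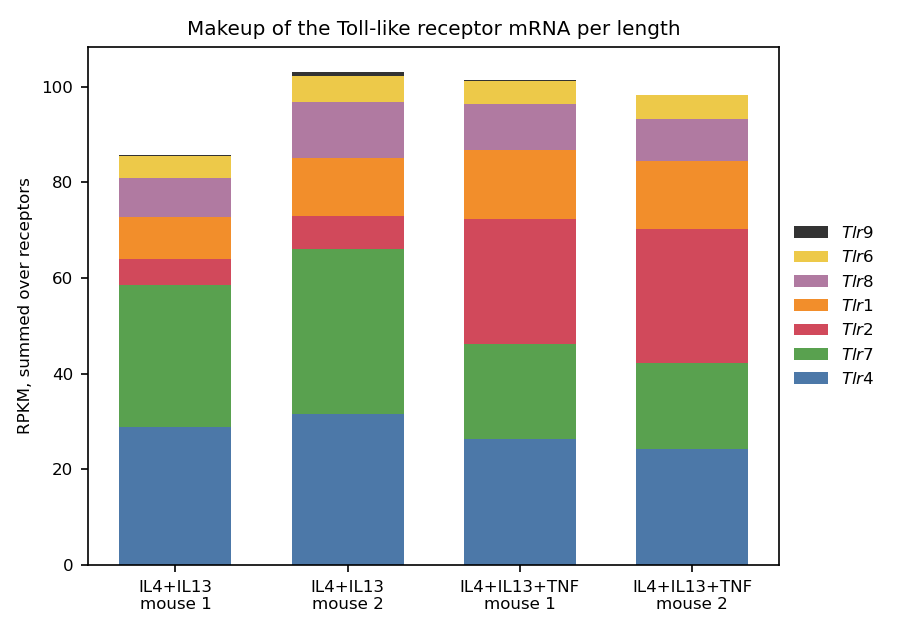
Stacked bars give the RPKM of the 7 Toll-like receptor genes for each mouse and treatment, with 1 colour per gene. The *Tlr2* segment is 5.43 and 6.95 RPKM with IL4+IL13 and 26.2 and 28.01 RPKM with TNF, and the *Tlr7* segment is 29.8 and 34.4 RPKM against 19.9 and 17.9 RPKM.

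*Tlr2*, the shared partner of the lipopeptide receptors, was the gene of the group that differed most. Under IL4+IL13 its level was 16.4 CPM in mouse 1 and 20.96 CPM in mouse 2, whereas TNF cells had 79.1 and 84.4 CPM. Both levels with TNF lay far above both without it. The fold was 4.38, a log2 difference of 2.13 ± 0.22 (SE, 2 mice per treatment). With treatment as the only term, the quasi-likelihood test of edgeR gave a Benjamini-Hochberg adjusted p of 0.135 among 17034 genes, which does not pass the threshold of 0.05. With the mouse (the number in the labels, read as the animal) as a further term, which pairs the treatments, the adjusted p was 0.00730. DESeq2 without the mouse term gave 7.19e-13. On the plates, *Tlr2* stood at 15.6, 17.2, 16.3 and 26.2 CPM with IL4+IL13 (plates 2 to 5) and at 87.4, 72.3, 82.0 and 86.8 CPM with TNF. The log2 differences within plates were 2.45, 2.04, 2.30 and 1.71, so all 4 plates gave a difference of like size.

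*Tlr1*, which pairs with TLR2, was at 29.4 and 40.8 CPM with IL4+IL13 and at 48.1 and 47.9 CPM with TNF. The mice did not overlap between treatments, yet mouse 2 had a much smaller difference (log2 0.23) than mouse 1 (log2 0.70). The log2 difference was 0.45 ± 0.23 (SE), with an edgeR adjusted p of 0.725, or 0.181 with the mouse term. Within plates the log2 differences were 0.78, 0.63, 0.08 and 0.39. *Tlr6*, the other partner of TLR2, shares with *Tlr1* the uncertainty from their common sequence and was at 16.97 and 20.7 CPM against 17.8 and 18.7 CPM, and the treatments overlapped (log2 −0.05 ± 0.22, edgeR adjusted p 0.988). Of the lipopeptide receptor genes, *Tlr2* alone was thus past the threshold with the mouse term. A test of *Tlr2* against *Tlr1* or *Tlr6* was not run.

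*Tlr4*, the lipopolysaccharide receptor, was at 160.2 and 176 CPM with IL4+IL13 and at 146 and 135 CPM with TNF. The levels with TNF were the lower ones in both mice, with a log2 difference of −0.26 ± 0.16 (SE) and an edgeR adjusted p of 0.799, or 0.284 with the mouse term. *Cd14*, whose product passes lipopolysaccharide on to TLR4, was at 328 and 253 CPM against 271 and 234 CPM, and the treatments overlapped because the mice differed (log2 −0.20 ± 0.20, edgeR adjusted p 0.896). *Ly96*, which encodes the part of the receptor that holds the lipid, was at 73.9 and 75.2 CPM against 66.4 and 77.8 CPM (log2 −0.05 ± 0.18, edgeR adjusted p 0.985). None of the lipopolysaccharide receptor genes passed the threshold with either edgeR fit. *Cd14* and *Tlr4* were lower with TNF on all 4 plates, by log2 differences between −0.47 and −0.02 for *Cd14* and between −0.56 and −0.03 for *Tlr4*. Both differences shrank under other settings: *Cd14* was at log2 −0.0093 without the IL4+IL13 cells of mouse 1 and −0.0752 with spike-in scaling, and *Tlr4* at −0.0808 with spike-in scaling.

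*Tlr7*, a receptor for single-stranded RNA, was at 122 and 140.3 CPM with IL4+IL13 and at 81.4 and 72.9 CPM with TNF. Both levels with TNF were below both without it, by 1.70-fold. The log2 difference was −0.76 ± 0.18 (SE), with an edgeR adjusted p of 0.359. With the mouse term it was 0.05001, just outside the threshold, and DESeq2 gave 0.04415 without and 4.84e-06 with that term. By plate, *Tlr7* was at 107, 136, 133 and 148 CPM with IL4+IL13 and at 65.6, 94.1, 66.7 and 79.1 CPM with TNF. The log2 differences within plates of −0.71, −0.52, −0.99 and −0.90 all had the same sign. Without the 5 wells that held over 2000000 fragments, the adjusted p with the mouse term was 0.0282 at a log2 difference of −0.74. With treatment alone *Tlr7* was outside the threshold without these wells too (edgeR adjusted p 0.381). Scaled to the spike-in RNA, which moved the median log2 difference of all genes tested to 0.15, *Tlr7* was still lower (log2 −0.58) and *Tlr2* higher (log2 2.31).

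*Tlr8*, its neighbour and a further endosomal receptor, was at 29.2 and 41.8 CPM against 34.5 and 31.1 CPM. The treatments overlapped and the mice went opposite ways, with log2 differences of 0.24 in mouse 1 and −0.42 in mouse 2 (edgeR adjusted p 0.966). Within plates *Tlr8* gave −0.04, 0.60, −0.25 and −0.64, a spread that covers 0. *Tlr9*, the receptor for unmethylated CpG DNA, was near the limit of detection. Only 118 and 477 fragments in all were counted for *Tlr9* with IL4+IL13 and 58 and 87 with TNF, which is 0.647 and 2.82 CPM against 0.372 and 0.495 CPM. *Tlr9* did not reach the minimum of 5% of cells and was not tested.

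*Myd88*, the adaptor through which these receptors signal, was at 65.6 and 59.4 CPM with IL4+IL13 and at 68.8 and 58.1 CPM with TNF. The treatments overlapped, with a log2 difference of 0.02 ± 0.19 (SE) and an edgeR adjusted p of 0.994. The bases that *Myd88* shares with the neighbours named above leave its level uncertain, in a direction not known. The sign of this difference turned under several settings, as did those of *Tlr6*, *Tlr8* and *Ly96*, and no direction is given for these 4 genes.

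**Figure D2:**
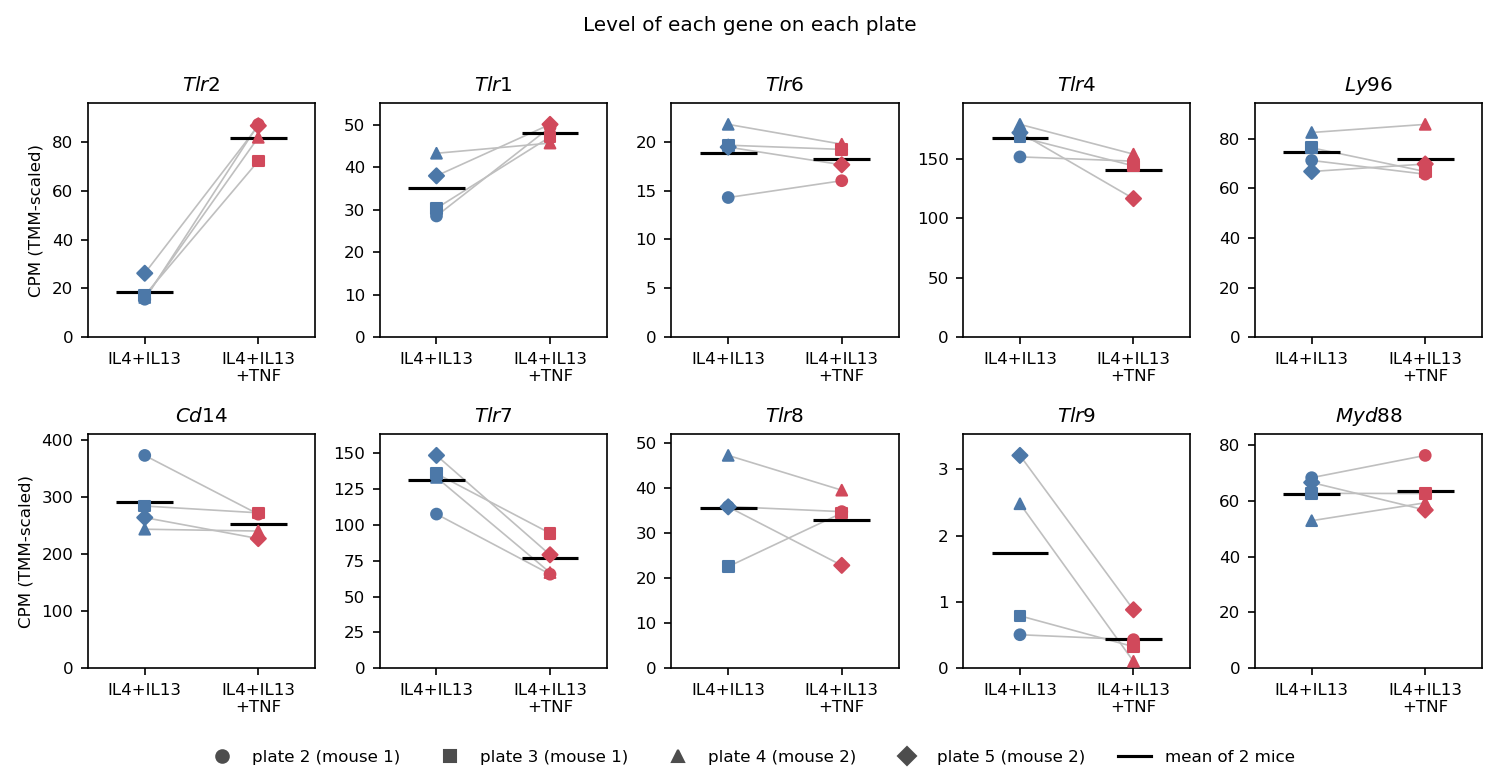
Each panel shows 1 gene, with the TMM-scaled CPM of cells summed per plate and treatment on a linear axis from 0, a marker shape per plate, grey lines joining the treatments of a plate and black bars for the mean of 2 mice. *Tlr2* is at most 26.2 CPM with IL4+IL13 and at least 72.3 CPM with TNF, *Tlr7* is lower with TNF on each plate, and the lines of *Tlr8* and *Myd88* cross.

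Counted over the group, 0 of the 9 genes tested passed the threshold in edgeR with treatment alone, where 0.00587% of all genes tested did. At an unadjusted p under 0.05, 2 of the 9 genes did (*Tlr2* and *Tlr7*), as did 1380 of all 17034. With the mouse term 1 gene was called higher (*Tlr2*), where 1.94% of all genes were called higher, and none was called lower, where 1.88% of all genes were. DESeq2 called *Tlr2* and *Tlr7* without the mouse term, where it called 3.89% of all genes with an adjusted p, and called the same 2 genes with it, where it called 14.8%. The median log2 difference was −0.05 over the 9 genes and 0.00 over all genes.

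The mice did not overlap between treatments for 2 genes that were higher with TNF (*Tlr2* and *Tlr1*) and for 2 of those tested that were lower (*Tlr4* and *Tlr7*). Over all genes tested the like shares were 18.6% higher and 17.9% lower, so a lack of overlap alone sets neither *Tlr1* nor *Tlr4* apart. The same 2 genes were higher on all 4 plates, where 18.8% of all genes were, and *Tlr4*, *Tlr7* and *Cd14* were lower on all 4, where 16.6% of all genes were. *Tlr9*, which was not tested, was lower on all 4 as well. A finer split summed each plate in 4 blocks of rows, 2 per treatment. Both blocks with TNF exceeded both without it on all 4 plates for *Tlr2*, with 66.4 to 104 CPM against 15.5 to 28.3 CPM, where 5.9% of all genes did so. *Tlr7* was lower in the same way, where 4.04% of all genes were.

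**Figure D3:**
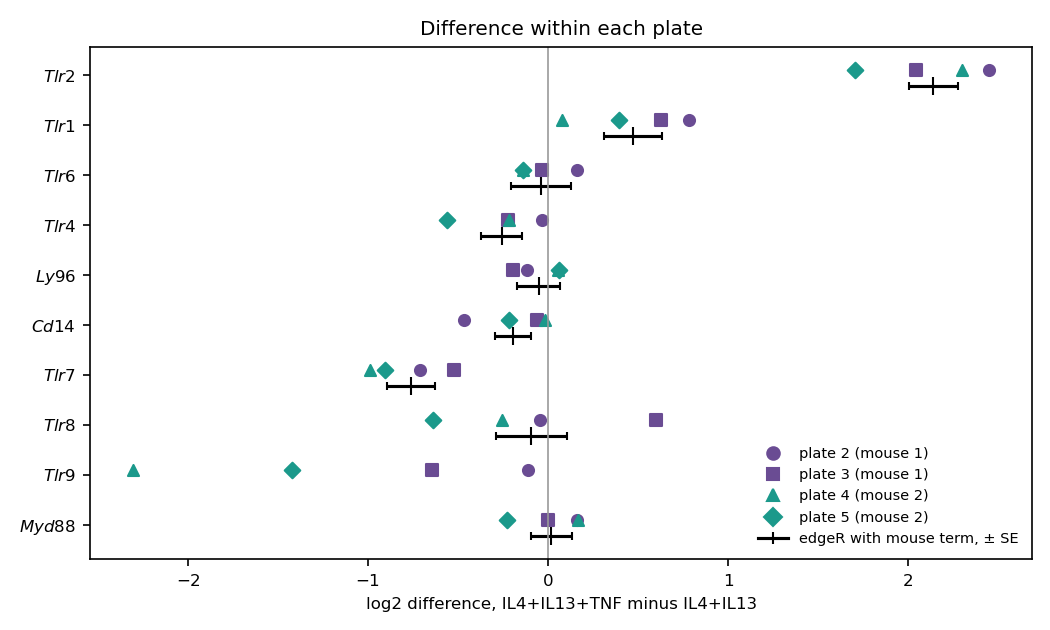
Points give the log2 difference between treatments within each plate, with 1 colour per mouse and 1 shape per plate, and black bars give the edgeR estimate with the mouse term and its SE (none for *Tlr9*). All 4 points of *Tlr2* lie between 1.71 and 2.45 and all 4 of *Tlr7* between −0.99 and −0.52, while those of *Tlr8* fall on both sides of 0.

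The share of cells in which a gene was found depends on depth, so each cell was thinned to 339000 fragments, which left 1250 cells. *Tlr2* was found in 107 of 332 and 136 of 309 cells with IL4+IL13, or 32.2% (95% exact Clopper-Pearson interval 27.2 to 37.5%) and 44.0% (38.4 to 49.7%). With TNF it was found in 212 of 303 and 224 of 306 cells, or 70.0% (64.5 to 75.1%) and 73.2% (67.9 to 78.1%). The mean gain was 33.5 ± 6.04 percentage points (SD, n = 2; exact two-sided permutation p 0.333). With 2 mice per treatment 0.333 is the smallest p this test can give, so it cannot pass the threshold for any gene. The intervals cover counting error only. Without thinning the shares were 35.01% and 50.2% against 72.3% and 74.8%.

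*Tlr7* was found in fewer cells with TNF, 79.5% and 76.8% against 91.3% and 86.7%. *Tlr1* was found in more, 65.02% and 62.7% against 47.3% and 48.9%. *Tlr6* too was found in more cells, 41.9% and 40.2% against 34.0% and 32.4%, although its summed level overlapped between treatments. Its gain was 7.88 and 7.83 percentage points, and 3.15 and 4.75 where at least 5 fragments were asked for. *Ly96*, at 79.2% and 74.5% against 74.4% and 63.4%, likewise had higher shares in both mice and levels that overlapped. The median number of genes found per cell at this depth was higher with TNF in each mouse, at 7741 and 7318 against 7375 and 6844, and its part in these gains was not tested. In both mice 6 of the 10 genes were found in more cells with TNF, as were 48.5% of all genes tested. *Tlr8* and *Myd88* were the other two, *Tlr8* by only 0.194 percentage points in mouse 2. The shares did not overlap between treatments for *Tlr1*, *Tlr2*, *Tlr6* and *Ly96*, all higher with TNF, where 20.7% of all genes tested were higher in this way. They were lower without overlap for *Tlr7*, *Cd14* and *Tlr9*, where 11.3% of all genes tested were.

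*Cd14* was found in 96.4 to 98.2% of cells and *Tlr4* in 89.2 to 94.1% in any mouse and treatment. *Myd88* was found in 63.8 to 74.6% of cells and *Tlr8* in 53.1 to 70.0%. *Tlr9* was found in 3.01% and 5.50% of cells with IL4+IL13 and 1.65% and 2.29% with TNF. Marker genes that macrophages should lack were found at the same depth too. B cell markers reached 3.59% of cells, T cell markers 8.25% and stromal markers 13.9%. Those of mast cells and their relatives reached 1.96%, and erythroid ones 1.94%. Markers of the neutrophil list reached 30.7%, the share of *S100a8* in mouse 2 with TNF. *S100a8* was found in 0.904% and 12.9% of cells with IL4+IL13 and in 5.94% of cells of mouse 1 with TNF. Of the 4 *Tlr9* shares, 3 lie within the B cell values and all 4 within the T cell and stromal values.

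**Figure D4:**
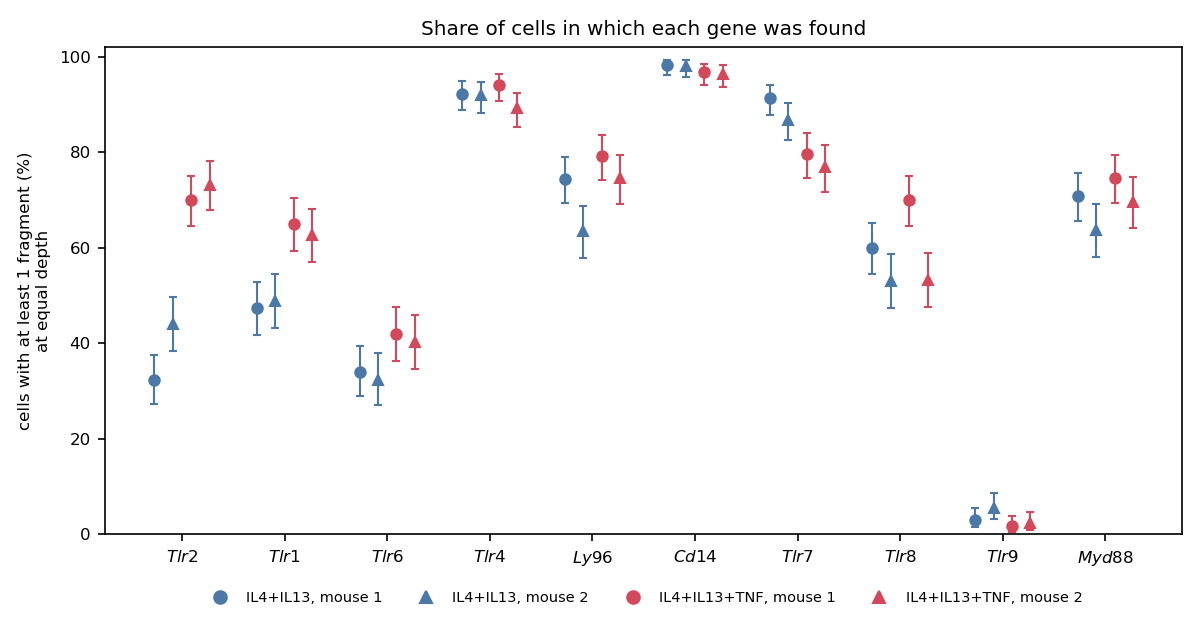
Points give the percentage of cells with at least 1 fragment of each gene after thinning to 339000 fragments, with circles for mouse 1, triangles for mouse 2 and bars for the 95% Clopper-Pearson interval. Both *Tlr2* shares are near 70% with TNF and below 45% without, whereas *Cd14* and *Tlr4* are found in most cells under both treatments.

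Besides being found in more cells, *Tlr2* was higher in those cells. Where it was found, the median was 8 and 4.5 fragments per cell with IL4+IL13 and 21 and 27 with TNF at equal depth. Cells with at least 20 fragments of *Tlr2* made up 10.5% and 12.3% with IL4+IL13 and 36.0% and 46.1% with TNF. For *Tlr7* the median in cells with it was 33 and 38 fragments against 24 and 23. The *Tlr2* fragments were concentrated in fewer cells without TNF, where the top 5% of cells held 49.6% and 56.2% of the summed CPM against 31.7% and 27.8% with TNF.

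*Tlr2* and *Tlr1* were found together in 17.2% and 23.3% of cells with IL4+IL13 and in 44.2% and 46.7% with TNF. The product of their separate shares was close to this, at 15.2% and 21.5% against 45.5% and 45.9%. *Tlr2* and *Tlr6* were found together in 12.05% and 11.7% against 29.7% and 31.0%. *Tlr4*, *Ly96* and *Cd14* were found together in 68.1% and 57.9% of cells against 73.6% and 63.4%. Cells had a median of 4 of the 7 receptors in every mouse and treatment, and at most 0.980% of cells had none. Rank correlations between pairs of these genes across cells were weak. The highest mean over the 4 sets of cells was 0.188, for *Tlr1* and *Tlr6*, which share sequence. *Tlr2* and *Cd14* gave 0.0454 and 0.0673 with IL4+IL13 and 0.234 and 0.243 with TNF, where *Tlr1* and *Tlr6* gave 0.221 and 0.144. *Tlr7* and *Tlr8* were also higher with TNF, at 0.226 and 0.172 against −0.00853 and −0.00819. With the number of genes found per cell, *Tlr2* gave 0.164 and 0.168 with TNF against 0.0339 and 0.0057. *Cd14* gave 0.183 and 0.179 with TNF against 0.131 and −0.0016, and the part of this number in the pair values was not tested. All values come from the same cells and share their depth, and no gene of 10650 compared reached a mean rank correlation of 0.3 with any of the 10, the highest being 0.248 between *Cd14* and *C5ar1*.

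The other genes of the pathway numbered 48 by a list of receptors, adaptors, chaperones, kinases, ubiquitin ligases, inhibitors and transcription factors, and 43 of them were tested. With treatment alone edgeR called 0 of 43, with 6 at an unadjusted p under 0.05, against 1380 of all 17034 genes. With the mouse term it called 4, all higher, where 1.94% of all genes were called higher. DESeq2 called 4 without that term, where it called 3.89% of all genes. The median log2 difference over the 43 genes was 0.04, against 0.00 over all genes.

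*Nfkbia*, which encodes the inhibitor IκBα, was at 118 and 121 CPM with IL4+IL13 and at 532 and 407 CPM with TNF (log2 1.97 ± 0.20, edgeR adjusted p 0.135, or 0.00771 with the mouse term). *Tnfaip3*, which encodes the ubiquitin-editing inhibitor A20, was at 8.98 and 16.1 CPM against 63.3 and 66.0 CPM (log2 2.37 ± 0.33, edgeR adjusted p 0.197, or 0.0124). *Traf3*, a ubiquitin ligase of the interferon branch, was at 13.5 and 13.97 CPM against 32.4 and 32.5 CPM (log2 1.24 ± 0.20, edgeR adjusted p 0.210, or 0.0211). *Ikbke*, which encodes a kinase related to TBK1, was at 32.6 and 62.7 CPM against 104 and 119 CPM (log2 1.23 ± 0.35, edgeR adjusted p 0.450, or 0.0360). These 4 genes are inhibitors, a ubiquitin ligase and a kinase, and none is a receptor or an adaptor. Few genes of those roles were tested, at 2 other Toll-like receptors, 3 co-receptors or related receptors and 4 adaptors. DESeq2 with the mouse term called 1 gene lower in each of them. A difference between roles was not tested.

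The 8 further genes with the largest differences in 1 direction in both mice did not pass in either edgeR fit. They were *Nfkb1* (log2 0.64), *Slc15a3* (0.57) and *Irf5* (0.54), with positive log2 differences, and *Ly86* (−0.57), *Tab3* (−0.51), *Pik3ap1* (−0.50), *Sigirr* (−0.46) and *Tlr13* (−0.44), with negative ones. *Tab3* and *Sigirr* rest mostly on 1 mouse, with log2 differences of −0.01 and −0.91 for *Tab3* and −0.85 and −0.09 for *Sigirr* in mouse 1 and mouse 2. DESeq2 with the mouse term called 10 pathway genes, 7 higher and 3 lower, in a fit that called 14.8% of all genes. *Tlr13*, a receptor for bacterial ribosomal RNA, was among the lower ones, at 77.6 and 80.5 CPM with IL4+IL13 and 63.3 and 53.0 CPM with TNF.

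**Figure D5:**
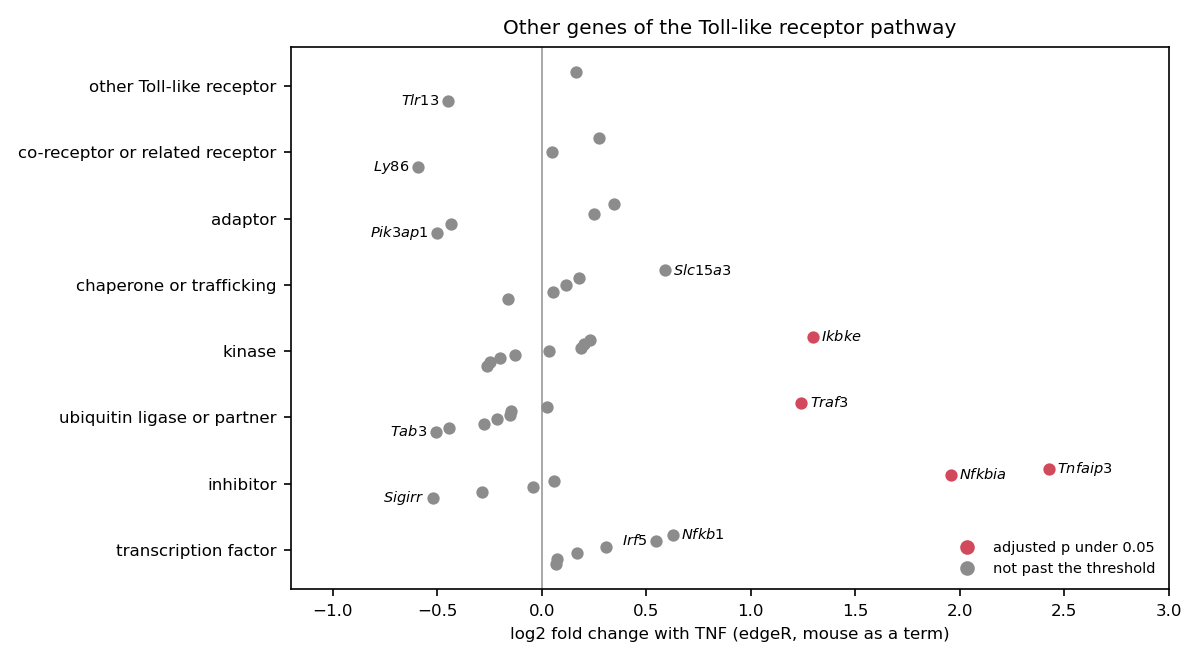
Points give the log2 fold change with TNF (edgeR with the mouse term) of the 43 pathway genes tested, in rows by role, in red where the adjusted p was under 0.05. The 4 red points, *Ikbke*, *Traf3*, *Nfkbia* and *Tnfaip3*, lie to the right of all others, and the 8 named grey points have log2 values between −0.59 and 0.63.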

How the data were processed

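Smart-seq2 libraries of single BMDMs were compared between IL4+IL13 and IL4+IL13+TNF. The number 1 or 2 in the sample labels was read as the mouse, since the series design names 2 separate mice, although no label states this and the study's text speaks of independent experiments. 4 samples with another label pattern were left out of all comparisons, and 8 columns of the table match no label and were not used. The authors deposited counts of fragments per gene and well, not normalized: per the paper, reads were aligned to mm10 with gsnap and assigned to Ensembl 98 genes with featureCounts 1.6.3, and the file header shows fragments counted without strand. The submitters' notes also name bcl2fastq 2.19.1 and Seurat 3. 55154 genes matched a symbol, and 92 spike-in rows were left out of totals.

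Wells more than 3 median absolute deviations below their plate's median in log fragments or genes found, or above it in mitochondrial or spike-in share, were left out (138 wells). No doublet caller was run on singly sorted cells. The counts of each mouse and treatment were added up and tested in R 4.3.3 with edgeR 4.0.16 (quasi-likelihood, TMM, treatment only, Benjamini-Hochberg), for genes found in at least 5% of cells of either treatment. CPM and RPKM are TMM-scaled, and per-mouse and per-plate log2 differences add 0.5 CPM. Alternatives used DESeq2 1.42.0, limma 3.58.1 (log2(mean CPM + 1)), other scalings, filters and left-out plates or sums. The numbers were taken to pair the sums: on this reading both treatments of a number came from the same animal, both were on the same plates, and they deviated together from the mean of their treatment (r = 0.568 over 17034 genes). Tests were tried first on simulated data. The genes and lists were chosen with earlier results of these data known. All 10 genes are named, and of the pathway list those past the threshold with or without the mouse term plus the 8 others with the largest change in 1 direction in both mice. Depth per cell limits the detection of low genes, and PCR copies are counted.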

Additional observations from a re-analysis of the deposited data

Results flagged for a closer look

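*Ly96* was lower with TNF on both plates of mouse 1 and higher on both plates of mouse 2. The mean log2 difference within plates was −0.15 in mouse 1 and 0.06 in mouse 2, which is −0.21 for mouse 1 minus mouse 2. This difference between the mice was not tested.

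Of the 4 wells whose labels name IL4+IL13 but carry no mouse number, 3 had a column in the table and entered no comparison. The 10 genes had 164 fragments in the well of plate 3 (9 genes found, of 279461 fragments in all), 229 in the well of plate 4 (10 genes found, of 354874) and 37 in the well of plate 5 (6 genes found, of 87198). All 3 values are above the 3 counts that a count of 0 allows, but they sum 10 genes, some found in most cells. The comparison therefore cannot tell these wells from others.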

How the results depend on the processing

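With treatment as the only term 0 of the 10 genes and 0 pathway genes were called. The mouse as a replicate block raised these counts to 1 and 4, DESeq2 to 2 and 4, DESeq2 with the block to 2 and 10, and leaving out the 5 deepest wells (chosen after seeing the data) together with the block to 2 and 7. The block called 651 genes in all against 1 without it. Leaving out a sum in turn gave 0 for both counts throughout, with the lone sum assumed to vary like the other treatment. *Tlr2* stayed between log2 1.96 and 2.32 over all settings run, with adjusted p from 1.79e-36 to 0.185, and *Tlr7* stayed negative, with adjusted p from 4.84e-06 to 0.9999.

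Signs turned for 4 genes, and the cause was not tested. Spike-in scaling gave log2 differences of 0.13 for *Tlr6*, 0.11 for *Tlr8* and 0.087 for *Ly96*. *Tlr6* was 0.0675 with fixed cell thresholds and 0.0657 with no cell filter, and *Tlr8* was 0.0261 without plate 2. *Myd88* was −0.0709 with library sizes, −0.0427 with limma, −0.131 with fixed thresholds, −0.132 with no cell filter, −0.0109 without plate 2 and −0.0762 without plate 4. With a sum left out, *Tlr6* ranged from −0.19 to 0.11, *Tlr8* from −0.36 to 0.17, *Ly96* from −0.17 to 0.0623 and *Myd88* from −0.11 to 0.14. From 5 to 7 genes were found in more cells with TNF in both mice over the settings for shares, against 6 as reported (6 to 7 with a mouse left out). Depth limits *Tlr9* most, with at most 477 fragments per mouse and treatment.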
